A study of Mus musculus with 12 samples.

Results

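Expression of 6 genes known from myelin and from Schwann cells, Mbp, Cnp, S100b, Pmp22, Sox10 and Prx, was followed in mouse heart RNA. They are 6 of the 30199 genes in the deposited table and were taken by their gene symbols. The genes were selected on earlier results of these data, and which comparison drew attention to each is not recorded, so their differences between groups are given as a description and adjusted p-values only place them among all genes. All animals were C57BL/6J mice, and the 12 libraries fell into 4 groups of 3: control heart libraries and heart libraries labelled PLX3397, sorafenib, or both agents. The labels give 28 days of sorafenib, a kinase inhibitor used against cancer, with or without macrophage clearance by PLX3397, an inhibitor of the receptor CSF1R. No age, sex or dose is given, and separate animals are not stated for the libraries, so the p-values measure only the spread between these libraries.

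Myelin is the layered membrane that glial cells wrap around axons. Schwann cells make it in peripheral nerves and oligodendrocytes make it in the brain and spinal cord, and both cell types share some of its proteins. Mbp and Cnp belong to both kinds of myelin, whereas Pmp22 and Prx are typical of the peripheral kind. The nerves of the heart are mostly thin autonomic fibres whose Schwann cells ensheath axons without forming myelin. The factor gene Sox10 is expressed throughout the Schwann cell lineage and in oligodendrocytes, and S100b is a calcium-binding protein gene of Schwann cells and of astrocytes.

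Total estimated counts were 61626404 to 64537365 per library, and mitochondrial genes took 29.2% to 33.6% of them. One library stood apart from its group. On the first principal component, which held 22.8% of the variance, PLX3397 replicate 1 lay at -46.3, among the controls at -45.5 to -61.2, while PLX3397 replicates 2 and 3 lay at 6.97 and 5.95. The other 6 libraries lay at 14.5 to 53.4. Results that include the PLX3397 group are therefore also given without this library. As a check of the labels, Csf1r, the macrophage receptor gene, had 53.7 ± 5.38 CPM in controls, 44.2 ± 7.30 with PLX3397, 23.9 ± 5.77 under sorafenib and 14.4 ± 2.10 with both agents (SD, n = 3). The PLX3397 and control libraries overlapped, with 52.4 CPM in PLX3397 replicate 1 and 48.3 in control replicate 2. PLX3397 replicates 2 and 3 had 38.4 and 41.8 CPM, below every control. With all of its libraries, the PLX3397 group was therefore not separated from control by Csf1r, and the check does not settle its labels. CPM are counts scaled to library size, comparable for 1 gene across libraries, and FPKM are also scaled for gene length.

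The 6 genes spanned a wide range of levels per length. In the controls, Pmp22 had 18.5 ± 1.73 FPKM, Mbp 6.64 ± 0.450, Cnp 3.85 ± 0.478, S100b 1.90 ± 0.219, Sox10 0.698 ± 0.223 and Prx 0.277 ± 0.141 (SD, n = 3). The control libraries of neighbouring genes in this order did not overlap, although the lowest Sox10 value (0.446 FPKM) was close to the highest Prx value (0.439 FPKM). With both agents Mbp had 1.90 ± 0.108 FPKM and Cnp 1.78 ± 0.191, and the libraries of this pair overlapped. All 6 genes passed the filter on low counts. Their lowest estimated counts in any library were 1040 for Mbp, 2044 for Pmp22, 387 for Cnp, 67 for Sox10, 57 for S100b and 35 for Prx, so the last 3 rest on the fewest reads. Between the highest and the lowest library the level differed 1.35-fold for Pmp22, 2.35-fold for Cnp, 2.60-fold for Sox10, 3.38-fold for Mbp, 3.47-fold for S100b and 4.40-fold for Prx.

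**Figure D1:**
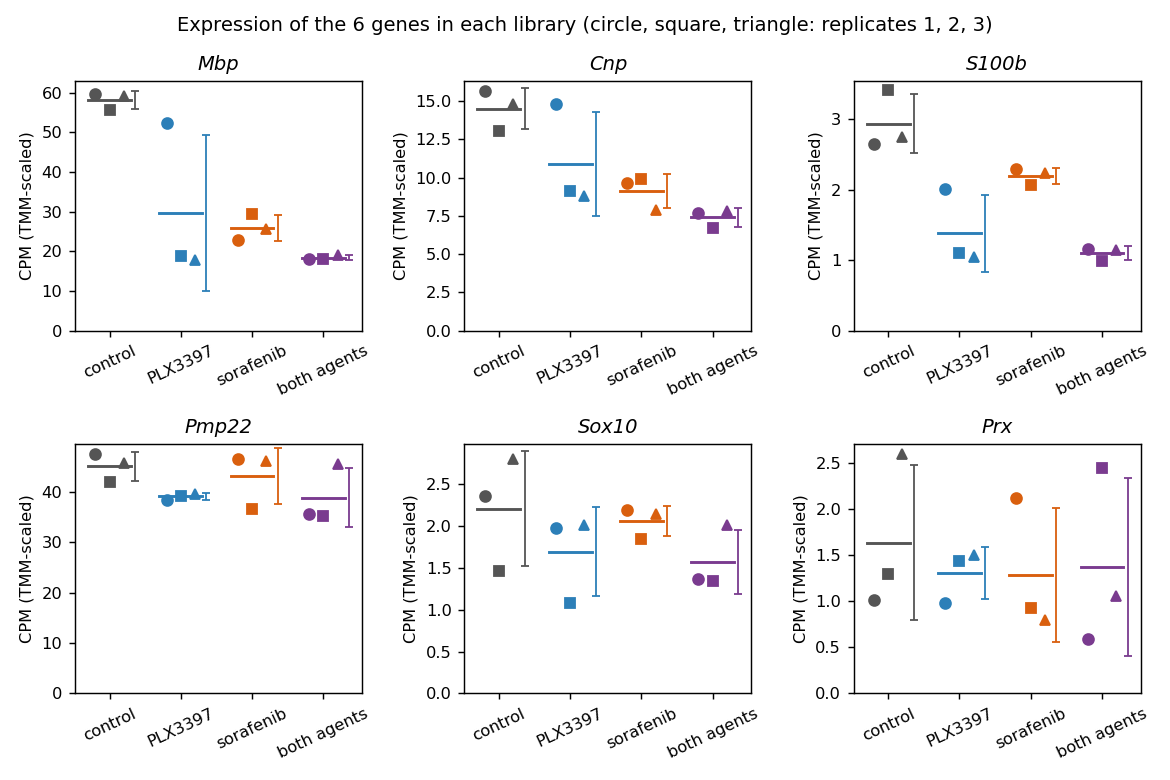
CPM of each gene in the 12 libraries (y axes start at 0), with a symbol per replicate, a line at the group mean and a bar of 1 SD. Mbp and Cnp of PLX3397 replicate 1 (circle, 52.3 and 14.8 CPM) sit at control level, and S100b is lower in both groups that received PLX3397.

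Mbp encodes myelin basic protein, which holds the layers of compact myelin together. The gene (ENSMUSG00000041607) lies on the plus strand of chromosome 18, from 82475146 to 82585637 in the mm10 build. It had 59.8, 55.7 and 59.2 CPM in the controls and 18.03, 17.9 and 19.1 CPM with both agents. With sorafenib it had 22.9, 29.4 and 25.5 CPM, and with PLX3397 52.3, 18.9 and 17.7 CPM. The 3 controls and PLX3397 replicate 1 thus lay at 52.3 to 59.8 CPM and the other 8 libraries at 17.7 to 29.4, with no value between. Mbp was lower with both agents than in controls by a log2 fold change of -1.66 ± 0.37 (SE; adjusted p = 0.0174, edgeR's quasi-likelihood test). In heart RNA, fewer cells of a type and less RNA per cell cannot be told apart. Without control replicate 3, both agents replicate 1 or both agents replicate 2 the fold change was -1.65 in each case with adjusted p of 0.0547 to 0.0649, above the threshold of 0.05. Without PLX3397 replicate 1, left out after its values were seen, it was also -1.65, with an adjusted p of 1.49e-06. Sorafenib against control gave -1.17 ± 0.36 (adjusted p = 0.111) without overlap of the libraries, and PLX3397 against control -0.97 ± 0.36 (adjusted p = 0.362), also without overlap. The gene has 16 annotated transcripts in GENCODE vM21, and the deposited values sum over them, so the forms made in myelin are not separated from other products of the locus.

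Cnp encodes an enzyme of the cytoplasmic channels of myelin and of the cells that form it. It lies on the plus strand of chromosome 11 (ENSMUSG00000006782, 100574904 to 100591729, mm10). It had 15.7, 13.0 and 14.8 CPM in controls, 14.8, 9.11 and 8.78 with PLX3397, 9.67, 9.88 and 7.88 under sorafenib, and 7.66, 6.68 and 7.84 with both agents. The order of the libraries was close to that of Mbp: the controls and PLX3397 replicate 1 lay at 13.0 to 15.7 CPM and the other 8 at 6.68 to 9.88. Cnp was lower with both agents than in controls (-0.97 ± 0.18, adjusted p = 0.00407) and lower on average over the 6 sorafenib libraries than over the 6 without it (-0.61 ± 0.13, adjusted p = 0.00764). Both calls held when any of the 12 libraries was left out. Sorafenib alone against control gave -0.67 ± 0.18 (adjusted p = 0.0585). Of the exonic bases of Cnp, 154 (4.23%) overlap Dnajc7 on the opposite strand, a gene with a mean of 5.44 FPKM, and since the use of strand in counting is not given in the sources used here, a share of its reads could belong to that neighbour.

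S100b is on the plus strand of chromosome 10 (ENSMUSG00000033208, 76253853 to 76261159, mm10). It had 2.65, 3.42 and 2.75 CPM in controls and 2.29, 2.07 and 2.24 with sorafenib, against 2.01, 1.10 and 1.04 with PLX3397 and 1.16, 0.983 and 1.14 with both agents. In CPM every one of the 6 libraries with PLX3397 was below every one of the 6 without it, which held for 0.132% of the genes tested. The margin was narrow, with 2.01 CPM in PLX3397 replicate 1 against 2.07 in sorafenib replicate 2. In FPKM the order of these libraries was reversed (1.30 against 1.19), so the libraries with and without PLX3397 overlapped there. The average PLX3397 effect in edgeR was -1.04 ± 0.19, and although S100b ranked 4 among all genes by this test, its adjusted p was 0.256. S100b was lower with both agents than in controls (-1.42 ± 0.27, adjusted p = 0.00514), a call that held without any one library. Both agents against sorafenib gave -1.004 ± 0.27 (adjusted p = 0.492) without overlap of the libraries, and sorafenib against control -0.42 ± 0.27 (adjusted p = 0.390), also without overlap.

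The promoter windows of Cnp and S100b are shown because both genes had lower values with both agents; they run from 250 bases before to 50 bases after a RefSeq transcript start in GRCm38.p6. The capitals mark ACAAAG, the core motif of SOX factors, searched on both strands together with GTGGGCG, a core motif of EGR factors. The Cnp window is chr11:100574689-100574988 and the S100b window chr10:76253586-76253885, both on the plus strand.
Cnp: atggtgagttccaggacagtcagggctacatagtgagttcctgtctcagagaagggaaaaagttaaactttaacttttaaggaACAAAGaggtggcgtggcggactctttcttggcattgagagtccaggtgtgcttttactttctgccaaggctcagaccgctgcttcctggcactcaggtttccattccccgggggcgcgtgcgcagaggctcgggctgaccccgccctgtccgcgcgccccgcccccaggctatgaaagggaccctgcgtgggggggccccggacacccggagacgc
S100b: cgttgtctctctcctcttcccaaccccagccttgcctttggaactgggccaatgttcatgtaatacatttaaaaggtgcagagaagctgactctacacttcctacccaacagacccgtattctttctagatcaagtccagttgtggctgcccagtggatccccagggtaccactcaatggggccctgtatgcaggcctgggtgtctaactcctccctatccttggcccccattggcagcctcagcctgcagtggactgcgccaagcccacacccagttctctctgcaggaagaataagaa
The Cnp window held 1 match to ACAAAG, 167 bases before the start, and none to GTGGGCG, and the S100b window held neither. Of 32851 windows of this length, 18.7% held ACAAAG and 7.97% GTGGGCG, so these matches are a description of the letters. Windows were also found for Pmp22, with 4 starts, and for Prx, without a match to either motif. Mbp and Sox10 are named only.

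Pmp22 encodes a membrane protein of compact peripheral myelin that is also made by many cells outside nerves. It lies on the plus strand of chromosome 11 (ENSMUSG00000018217, 63128982 to 63159547). Its level was steady: 47.4, 41.9 and 45.8 CPM in controls, 38.4, 39.2 and 39.7 with PLX3397, 46.6, 36.7 and 46.2 under sorafenib, and 35.7, 35.3 and 45.6 with both agents. The 3 PLX3397 libraries lay below the 3 controls, while the other groups overlapped them. Its largest difference was with both agents against control (-0.21 ± 0.11, adjusted p = 0.211), and without both agents replicate 3 this was -0.35 with an adjusted p of 0.0494.

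Sox10, the lineage factor gene on the minus strand of chromosome 15 (ENSMUSG00000033006, 79154908 to 79165240), had 2.36, 1.46 and 2.81 CPM in controls and 2.19, 1.85 and 2.14 with sorafenib. It had 1.98, 1.08 and 2.02 CPM with PLX3397 and 1.37, 1.35 and 2.02 with both agents. The libraries of every group overlapped those of the controls. Both agents against control gave -0.49 ± 0.31 (adjusted p = 0.310) and PLX3397 against control -0.38 ± 0.31 (adjusted p = 0.630).

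Prx encodes periaxin, a scaffold protein that links peripheral myelin to the basal lamina. It lies on the plus strand of chromosome 7 (ENSMUSG00000053198, 27497388 to 27520214). It had 1.02, 1.29 and 2.60 CPM in controls, 0.976, 1.44 and 1.50 with PLX3397, 2.12, 0.926 and 0.799 under sorafenib, and 0.590, 2.45 and 1.06 with both agents. The groups overlapped throughout, and the 3 libraries with both agents alone ran from 0.590 to 2.45 CPM, nearly the range of all 12. Both agents against control gave -0.26 ± 0.51 (adjusted p = 0.788), and the sign of each of its differences between groups turned when single libraries were left out. Of its exonic bases, 300 (5.38%) overlap the antisense gene Gm15541, which had a mean of 0.0231 FPKM.

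**Figure D2:**
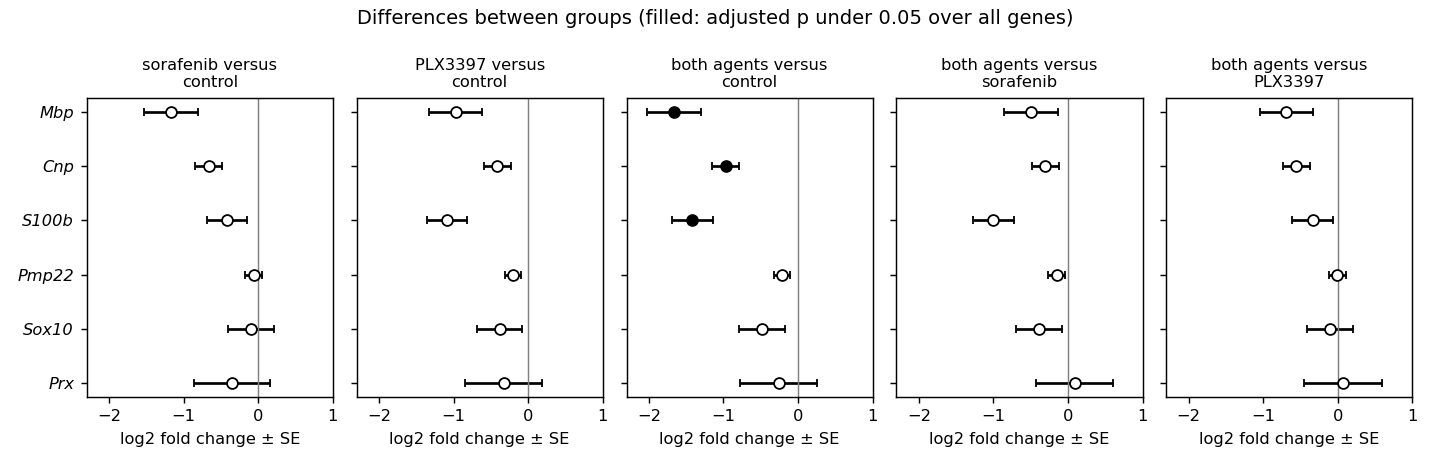
Log2 fold change ± SE of the 6 genes in 5 comparisons between groups (3 libraries each), with filled points where the adjusted p over all genes was under 0.05. The filled points are Mbp (-1.66), Cnp (-0.97) and S100b (-1.42) with both agents against control.

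With both agents against control, 3 of the 6 genes were called lower and 0 higher, and 8.14% of all 18897 tested genes were called lower. Over all genes 1539 were lower and 1507 higher, while limma on log2(FPKM + 0.5) called 2739 lower of 3255. The same 3 genes had an unadjusted p under 0.05, as did 30.9% of all genes. The median of the 6 was -0.73, and that of all genes -0.02. Mbp, Cnp and S100b were also the 3 genes whose libraries lay wholly below the controls, as did 19.0% of all genes. With sorafenib against control 0 of 6 were called by edgeR, where 1.14% of all genes were called lower. Over all genes 216 were lower and 284 higher, while limma on log2(FPKM + 0.5) called 688 lower of 779. The Wald test of DESeq2 called 2 of them, Mbp and Cnp, and the same 2 genes had an unadjusted p under 0.05 in edgeR, as did 21.7% of all genes. The median of the 6 was -0.38, that of all genes -0.02, and 3 of the 6 lay wholly below the controls against 13.7% of all genes. For the average sorafenib effect, which sets the 6 libraries with sorafenib against the 6 without, 2 of the 6 were called lower, Cnp and Mbp (-0.93 ± 0.25, adjusted p = 0.0458), where 6.32% of all genes were called lower. The Mbp call was lost when any 1 of 9 of the 12 libraries was left out, each of the controls, the sorafenib libraries and those with both agents (adjusted p up to 0.0969).

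In the comparisons for PLX3397 none of the 6 was called by edgeR or by DESeq2. PLX3397 against control called 0% of all genes lower in edgeR, with 17 called lower by DESeq2. In that comparison 3 of the 6, Mbp, Cnp and S100b, had an unadjusted p under 0.05, against 12.3% of all genes (2325). Their median was -0.40 and that of all genes -0.01. In all, 3 of the 6, Mbp, Pmp22 and S100b, lay wholly below the controls, as did 7.31% of all genes. Both agents against sorafenib called 0% of all genes lower in edgeR, where DESeq2 called 37. Here 1 of the 6 (S100b) had an unadjusted p under 0.05 against 6.43% of all genes, and 3 of the 6 did not overlap against 6.21%. Both agents against PLX3397 called 2.23% of all genes lower, 1 of the 6 (Cnp, -0.56 ± 0.18, adjusted p = 0.119) had an unadjusted p under 0.05 against 15.9% of all genes, and 1 did not overlap against 11.5%. The average PLX3397 effect called 0% of all genes lower in edgeR, where DESeq2 called 43, with 4 of the 6 at an unadjusted p under 0.05 against 12.6% of all genes. The interaction, which asks whether the sorafenib difference is alike with and without PLX3397, called 0% of all genes lower in edgeR, where DESeq2 called 3, and 0 of the 6 had an unadjusted p under 0.05 against 5.82% of all genes. These comparisons share groups, so their counts are not independent.

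Leaving out PLX3397 replicate 1 changed the calls of Mbp, Cnp and S100b. PLX3397 against control then gave -1.65 ± 0.11 for Mbp (adjusted p = 1.15e-05), -0.68 ± 0.14 for Cnp (adjusted p = 0.0303) and -1.44 ± 0.26 for S100b (adjusted p = 0.0153), where 1.67% of all genes were called lower. The average PLX3397 effect called the same 3 genes, at -1.08 ± 0.07, -0.49 ± 0.10 and -1.22 ± 0.17, with 1.25% of all genes called lower. Both agents against control kept the calls of all 3, with adjusted p of 1.49e-06 for Mbp, 0.000422 for Cnp and 0.0011 for S100b. There 1741 of the 18897 genes were called lower. Sorafenib against control then called Mbp (-1.15, adjusted p = 8.08e-05) and Cnp (-0.65, adjusted p = 0.0127), with 2.88% of all genes called lower. The fold changes of that comparison hardly moved, while the SE of Mbp fell from 0.36 to 0.10. The average sorafenib effect without this library was -0.58 ± 0.07 for Mbp (adjusted p = 0.000507), against -0.93 with it, and -0.47 ± 0.10 for Cnp (adjusted p = 0.0097), against -0.61, with 4.04% of all genes called lower. Mbp was the only one of 18897 genes called higher in the interaction (1.15 ± 0.15, adjusted p = 0.0271), which is 0.00529% of them. In that fit Mbp was lower by nearly the same amount with PLX3397 and with both agents (-1.65 in each), and the difference of both agents against PLX3397 was 9.04e-05. The same difference was -0.28 ± 0.14 for Cnp (adjusted p = 0.466), against -0.56 with all libraries. The library was set aside after its values were seen, and 2 PLX3397 libraries remained.

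Other genes of myelin had lower values as well, while the levels of peripheral myelin genes differed widely. The genes at the low end were chosen for naming after their values were seen. Ncmap and Cldn19, whose products belong to the peripheral sheath, were at 0 in 8 libraries each. Gjb1, a connexin gene of myelinating Schwann cells, had a mean of 0.0638 FPKM over the 12 libraries and was at 0 in 1. In the controls, where Mbp was highest, Gjb1 had 0.115 ± 0.0288 FPKM (SD, n = 3). Drp2, the gene of a partner of periaxin, was detected in every library and had 0.137 ± 0.0141 FPKM in the controls (SD, n = 3), beside the 0.277 FPKM of Prx and the 18.5 FPKM of Pmp22.

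Of 9 tested genes in a list of 12 for myelin proteins and lipids, 4 fell with both agents against control and 0 rose, where 8.14% of all genes were called lower, with a list median of -1.26 against -0.02 for all genes. They were Mag (-1.55 ± 0.46, adjusted p = 0.0377), which encodes an adhesion protein facing the axon, Mal (-0.42), Drp2 (-1.13) and Cmtm5 (-2.26). Cmtm5 kept its call without any one library. Mag and Drp2 lost theirs without any 1 of the 3 controls or the 3 libraries with both agents, and Mal without 3 of these. Drp2 was -0.20 with limma on log2(FPKM + 0.5) (adjusted p = 0.143). Mag had 2.64, 2.72 and 3.47 CPM in controls and 3.54, 1.19 and 0.825 with PLX3397. It had 1.34, 1.80 and 0.703 CPM with sorafenib and 1.13, 0.880 and 1.01 with both agents. As with Mbp, the controls and PLX3397 replicate 1 were its 4 highest libraries. On average over sorafenib Mal (-0.31 ± 0.08, adjusted p = 0.0286) and Cmtm5 (-1.22 ± 0.29, adjusted p = 0.0144) fell, where 6.32% of all genes were called lower. Mal lost that call without any 1 of 6 of the 12 libraries, PLX3397 replicate 1 among them (-0.28, adjusted p = 0.0766), and Cmtm5 kept its call without any one library. Against PLX3397 alone, Cmtm5 was lower with both agents (-1.72, adjusted p = 0.0379, with 2.23% of all genes called lower). This call was lost without 6 of the 12 libraries, with only the groups compared (adjusted p = 0.107) and with the replicate number as a block (adjusted p = 0.0703).

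Regulators of the Schwann cell lineage overlapped in summed level, with 10.98 to 13.6 FPKM in the controls and PLX3397 replicate 1 and 11.03 to 13.6 in the other 8 libraries. Of 15 tested genes, 2 fell with both agents, where 8.14% of all genes were called lower: Egr2 (-1.31 ± 0.40, adjusted p = 0.0393), which encodes a factor needed for peripheral myelination, and Pou3f1 (-1.33 ± 0.42, adjusted p = 0.0446), a factor gene that acts before it. Egr2 lost its call without any 1 of the controls or of the libraries with both agents and Pou3f1 without 7 of the 12 libraries, and Egr2 was -0.93 (adjusted p = 0.147) without control replicate 1. Both calls were also lost with the replicate number as a block (adjusted p = 0.0663 and 0.0631) and without a filter (0.0513 and 0.065), and that of Pou3f1 with only the groups compared (0.0623). Egr2 had 1.99, 1.08 and 1.04 CPM in controls and 0.480, 1.18 and 1.24 with PLX3397, so PLX3397 replicate 1 was the lowest library of that group rather than the highest. Pou3f1 had 1.10, 0.815 and 1.14 CPM in controls and 0.946, 0.839 and 0.535 with PLX3397, so there the same library was the highest of its group. The most abundant regulators per length were Nab1 (3.75 FPKM), Nab2 (2.14), Erbb3 (1.64) and Erbb2 (1.40), means over the 12 libraries. Erbb3, the neuregulin receptor gene of Schwann cells, had 9.01 ± 1.28 CPM in controls, 11.5 ± 1.49 with PLX3397, 10.96 ± 1.74 under sorafenib and 11.7 ± 1.45 with both agents (SD, n = 3), and was not called. The median of the list with both agents was -0.04 against -0.02 for all genes.

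Genes of Schwann cells that do not form myelin had calls in both directions, with few genes called. Of 14 tested genes, 2 fell and 1 rose with both agents, where 8.14% of all genes were called lower and 7.97% higher. The 1 call higher of 14 was near the share of all genes. In this comparison 10 of the 14 were below 0, with a list median of -0.40 against -0.02 for all genes. Cdh19, an adhesion gene of the Schwann cell lineage, rose with both agents (0.90 ± 0.25, adjusted p = 0.0255) and with sorafenib against control (1.02 ± 0.25, adjusted p = 0.0433, with 1.50% called higher). It had 3.77, 3.09 and 2.18 CPM in controls, 3.66, 4.52 and 3.90 with PLX3397, 7.02, 4.39 and 6.99 under sorafenib, and 4.34, 5.49 and 7.02 with both agents. Averaged over PLX3397, Cdh19 rose with sorafenib by 0.75 ± 0.17 (adjusted p = 0.0131, with 5.62% called higher), a call that held without any one library. The call with both agents was lost without control replicate 2 or 3 or both agents replicate 2 or 3, that with sorafenib without 6 of the 12 libraries, and both were lost with limma on FPKM. The call with sorafenib was also lost with the replicate number as a block (adjusted p = 0.076) and with only the groups compared (adjusted p = 0.067). Gfap (-1.47 ± 0.39, adjusted p = 0.0231), the filament gene of astrocytes and of some Schwann cells, and Fabp7 (-2.01 ± 0.45, adjusted p = 0.00987), a lipid-binding protein gene of glia, fell with both agents. Fabp7 kept its call without any one library, and Gfap lost its call without control replicate 2 or any 1 of the libraries with both agents. Scn7a, a sodium channel gene of these cells, had 21.9 ± 4.44 CPM in controls and 30.8 ± 4.17 with both agents and was not called, and Art3, the most abundant gene of the list at 54.3 FPKM, had 223 ± 20.1 and 247 ± 35.7 CPM. The cell source of the Art3 values was not tested.

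**Figure D3:**
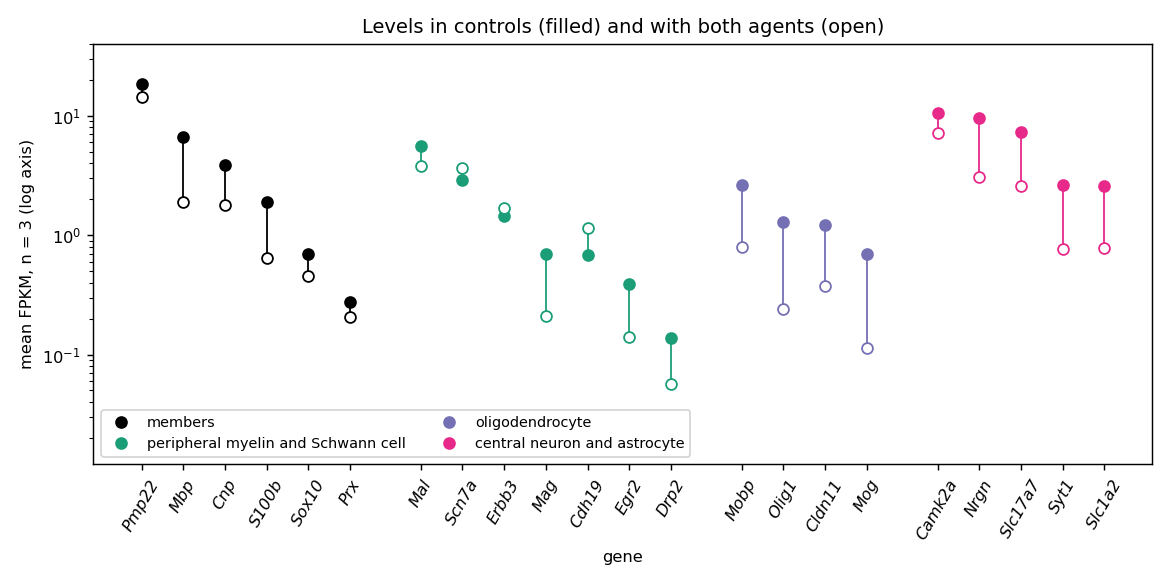
Mean FPKM on a log axis (n = 3) in controls (filled) and with both agents (open) for the 6 genes and for genes of Schwann cells, oligodendrocytes, central neurons and astrocytes. Drp2 (0.137 FPKM in controls) lies below Mobp (2.66) and Camk2a (10.5), while Cdh19, Erbb3 and Scn7a are the genes drawn with a higher open than filled point.

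Markers of the central nervous system were detected in every group and moved with Mbp. Of 8 oligodendrocyte genes, all 8 passed the filter on low counts, and 4 fell with both agents against control: Mobp (-1.59 ± 0.44, adjusted p = 0.0384), Mog (-2.39), Olig1 (-2.26) and Cldn11 (-1.57), with a list median of -1.24 and 8.14% of all genes called lower. Mobp encodes a structural protein of central myelin and Mog a surface protein of the oligodendrocyte sheath. Mog and Olig1 kept their calls without any one library, while Cldn11 lost its call without 3 of them and Mobp without 7 and also without a filter (adjusted p = 0.0769). Mobp had 20.6, 17.9 and 17.98 CPM in controls, 19.8, 6.35 and 5.48 with PLX3397, 6.95, 11.3 and 6.65 under sorafenib, and 6.39, 6.43 and 5.94 with both agents. As with Mbp, the controls and PLX3397 replicate 1 were high and the other 8 libraries low. The ratio of Mbp to Mobp in CPM stayed within 2.61 to 3.84 over the 12 libraries, while that of Mbp to Pmp22 ranged from 0.419 to 1.36. The summed level of the 8 genes was 5.74 to 8.12 FPKM in controls, 1.91 to 6.19 with PLX3397, 2.14 to 3.46 with sorafenib and 1.85 to 1.99 with both agents.

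Lists of 12 genes of central neurons and 7 of astrocytes, added after the oligodendrocyte values were seen, were tested in full. With both agents 6 of the 12 neuron genes fell, with a list median of -1.55, and 3 of the 7 astrocyte genes, with a list median of -1.23, where 8.14% of all genes were called lower. Nrgn (-1.50 ± 0.32, adjusted p = 0.00987), a postsynaptic protein gene of forebrain neurons, had 15.6, 13.2 and 14.6 CPM in controls, 13.0, 6.47 and 5.41 with PLX3397, 5.08, 10.1 and 5.71 under sorafenib, and 5.53, 4.76 and 5.05 with both agents. Nrgn kept its call without any one library. Aldoc, an astrocyte enzyme gene, fell as well (-1.93 ± 0.46, adjusted p = 0.0214), a call lost without 3 of the 12 libraries, and Camk2a, the most abundant of the 12 at 8.25 FPKM, had 81.0 ± 4.78 CPM in controls and 60.8 ± 4.94 with both agents without passing the test. The summed level of the 12 neuron genes was 33.2 to 40.1 FPKM in controls and PLX3397 replicate 1 together and 14.4 to 25.6 in the other 8 libraries, and that of the astrocyte genes 10.04 to 12.6 and 3.83 to 7.39. The part of these central cell types in the Mbp, Cnp and S100b values was not tested.

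**Figure D4:**
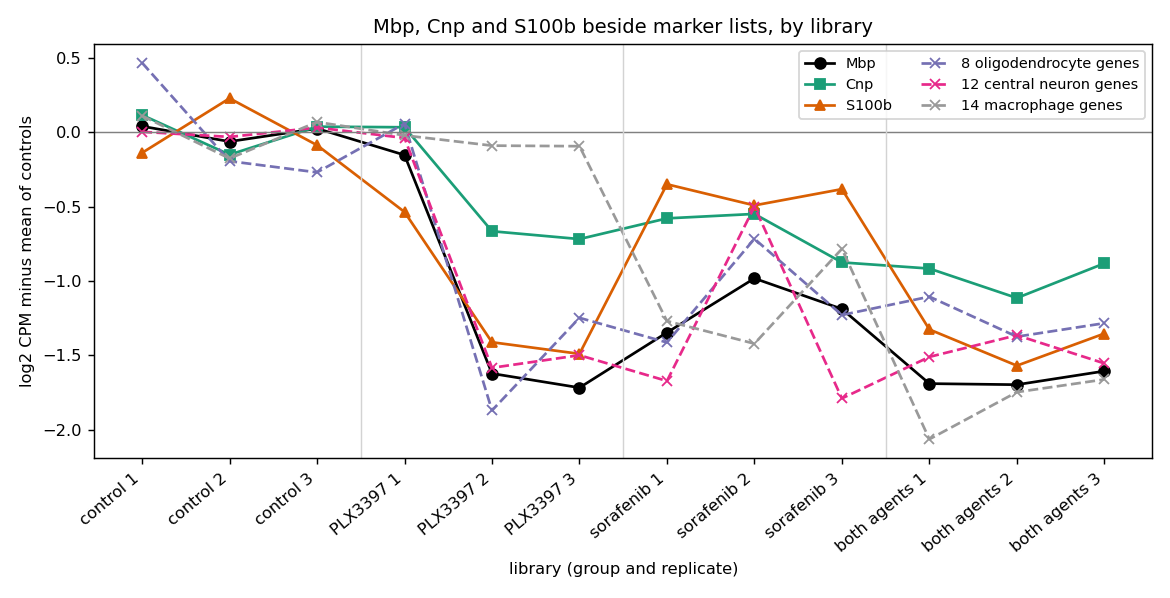
Log2 CPM of Mbp, Cnp and S100b and mean log2 CPM of 3 marker lists, each minus its mean over the controls, in the 12 libraries. Mbp and the oligodendrocyte and central neuron lists are higher in the controls and in PLX3397 replicate 1 than in each of the other 8 libraries, whereas the macrophage list is near 0 in all 3 PLX3397 libraries.

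Genes of autonomic neurons gave a mixed picture. Of 20 genes, 15 were tested, 1 fell with both agents, where 8.14% of all genes were called lower, and the median was -0.75. It was Tubb3 (-1.26 ± 0.39, adjusted p = 0.0432), a tubulin gene of neurons, whose call was lost without any 1 of 7 of the 12 libraries and without a filter (adjusted p = 0.0596). Th and Slc18a3, the marker genes of noradrenaline synthesis and of acetylcholine storage, were at 0 in 9 libraries each, and Chat, the gene of acetylcholine synthesis, in 11. Dbh, which encodes the enzyme that forms noradrenaline, was detected in every library at a mean of 1.45 FPKM, with 4.19 ± 0.502 CPM in controls and 4.16 ± 0.717 with both agents (SD, n = 3). Ddc, an enzyme gene of the same pathway, had a mean of 1.01 FPKM and Npy, a transmitter peptide gene of sympathetic neurons, 0.723. These 6 genes were named after their values were seen. The most abundant genes of the list were Uchl1 (5.21 FPKM), Snap25 (2.12), Tubb3 (1.67) and Stmn2 (1.48), which central neurons also express. The summed level was 23.2 to 25.3 FPKM in the controls and PLX3397 replicate 1 and 11.3 to 18.3 in the other 8 libraries.

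Of the other cell types of the heart, cardiomyocyte genes separated the same 4 libraries from the other 8, in the opposite direction. The mean log2 CPM of 10 cardiomyocyte genes, minus its mean over the controls, was -0.029 to 0.040 in the controls and PLX3397 replicate 1 and 0.20 to 0.54 in the other 8. With both agents against control 7 of the 10 rose and 0 fell, where 7.97% of all genes were called higher, with a list median of 0.40 against -0.02 for all genes. Examples are Myh6 (0.69 ± 0.13, adjusted p = 0.00515), the gene of the main cardiac myosin heavy chain of the mouse, and Ttn (0.93 ± 0.20, adjusted p = 0.0112), the gene of the sarcomere spring titin. Of the 7, 5 kept their calls without any one library, while Tnnt2 lost its call without 4 of the 12 libraries and Mybpc3 without 5, and both with limma on FPKM. The summed level of the 10 genes overlapped at 10227 to 11046 FPKM in the 4 libraries and 10477 to 13356 in the 8.

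In summed level the lists of other heart cells overlapped between the 4 libraries and the 8, although single groups within the 8 did not all overlap the controls. The summed level of 12 endothelial genes was 178 to 193 FPKM in the 4 and 145 to 199 in the 8, that of 10 fibroblast genes 504 to 631 and 382 to 756. That of 8 genes of pericytes and smooth muscle was 203 to 220 and 168 to 220, and that of 10 adipocyte genes was 5.01 to 10.3 and 1.06 to 14.1. By group, the endothelial sum was 178 to 193 FPKM in controls, 184 to 199 with PLX3397, 150 to 161 with sorafenib and 145 to 155 with both agents. With both agents against control, 3 of the 12 endothelial genes fell and 1 rose. Of the 8 pericyte and smooth muscle genes 2 fell and 1 rose, and of the 10 fibroblast genes 2 fell and 0 rose. No adipocyte or atrial gene was called. Over all genes 8.14% were called lower and 7.97% higher. The 5 atrial genes summed to 286 to 1354 FPKM in the 4 and 209 to 1989 in the 8. The 14 macrophage genes summed to 127 to 163 FPKM in controls, 123 to 143 with PLX3397, 50.7 to 90.5 with sorafenib and 36.4 to 48.1 with both agents. With both agents against control 12 of the 14 fell, where 8.14% of all genes were called lower. With PLX3397 against control the median of the 14 was -0.13 against -0.01 for all genes. PLX3397 replicates 2 and 3 thus had low Mbp beside macrophage genes near control level. The part of these lists in the values of the 6 genes was not tested.

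Among themselves the 6 genes fell into unlike patterns. Over the 12 libraries, which share groups and fall into a high and a low cluster for Mbp, Pearson's r of log2 CPM was 0.94 for Mbp and Cnp, 0.85 for Mbp and S100b, and 0.75 for Cnp and S100b. It was 0.69 for Pmp22 and Sox10 and 0.38 for Mbp and Pmp22, and for Prx with the other 5 it lay between 0.02 and 0.16. After the group means were removed r was 0.87 for Mbp and Cnp and -0.14 for Mbp and Pmp22. These are descriptions of 12 libraries.

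The genes most like each of the 6 were ranked by the same r among the 9919 or 9920 tested genes whose mean reached 1 FPKM. For Mbp they included Mobp (0.98) and Adgrb2 (0.97), with 80 genes above 0.9, and within the 8 libraries of low Mbp r was 0.83 and 0.86. For Cnp they were Septin5 (0.98), Mapk8ip1 (0.97) and Nsmf (0.97), with 62 genes above 0.9, and within the 8 libraries r was 0.91, 0.78 and 0.85. For S100b they were Map2k3os, Lztr1 and Exosc2 (0.92, 0.91 and 0.90), for Pmp22 Pdk3, Cfd and Retnla (0.91, 0.89 and 0.89), for Sox10 Ica1, Tut1 and Rfxank (0.87, 0.84 and 0.83), and for Prx Gja4, Cyp2f2 and Icam1 (0.85, 0.83 and 0.79). Cfd is an adipocyte gene and Gja4 a connexin gene of arterial endothelium. Cyp2f2 had 20.6 CPM in control replicate 3 and 21.4 in both agents replicate 2, which were also the libraries with the highest Prx (2.60 and 2.45 CPM). In every other library Cyp2f2 had at most 4.51 CPM. The cell source of the Prx values was not tested.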

How the data were processed

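Poly(A) RNA was sequenced in 12 mouse heart libraries. The labels' protocols describe Trizol extraction, selection on oligo(dT) beads and dUTP marking of the second strand. The authors deposited 1 row per gene holding, per library, an estimated count and an FPKM value. DESeq2, edgeR and the mm10 build are named, without versions, per the submitters' processing notes. Aligner and counting tool were not given in the sources used here. All deposited estimated counts are whole, with low values piling up at multiples of 4 (12143 values equal to 4, 5303 equal to 3), so whether each is a single fragment is not known. The deposited FPKM are scaled by the authors for gene length and library size, per the file headers. They were used for levels, for the minimum of 1 FPKM in the likeness ranking and for 2 alternatives.

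The titles gave the groups. With edgeR 4.0.16 (R 4.3.3), filterByExpr (minimum count 10, minimum total 15) kept 18897 genes. After TMM scaling, all 12 libraries entered 1 quasi-likelihood fit (robust option, a mean for every group) from which 8 contrasts were taken. Two-sided p-values received Benjamini-Hochberg adjustment across the tested genes, with calls under 0.05. The SE is the log2 fold change divided by the square root of the F statistic. The steps were tested on simulated data. The 6 genes and all gene lists were chosen with earlier results of these data known. List genes are named if they were called in a contrast or were among the 4 most abundant of the myelin, Schwann cell and neuron lists or the 2 most abundant of the others; Mog, Olig1, Cldn11, Ncmap, Cldn19, Gjb1, Th, Slc18a3, Chat, Dbh, Ddc, Npy and other genes outside this rule were chosen after their values were seen. Of the genes these rules cover, 2 are not reported here. Likeness used log2 CPM with a prior count of 2. Alternatives were other filters, the size factors and Wald test of DESeq2 1.42.0, limma 3.58.1 on log2(FPKM + 0.5) and log2(FPKM + 0.1), the replicate number as a block, separate fits of each pair of groups, counts divided by 4, mitochondrial genes removed, and leaving out each library. Gene starts and ends matched GENCODE vM21 for 5 of the 6 genes. The spread between libraries limits precision for the 3 genes with the lowest counts.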

Additional observations from a re-analysis of the deposited data

How the results depend on the processing

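Among 1038 recomputed log2 fold changes of the 6 genes, 51 turned in sign, and in 0 of these was the value called in either fit. The number of the 6 called with both agents against control stayed at 3 under every alternative other than leaving out libraries. With sorafenib against control, 0 of the 6 became 1 with a stricter count filter (at least 1 CPM in 3 libraries) or with counts divided by 4, and 2 with the Wald test of DESeq2, with limma at either pseudocount or with only the groups compared; without single libraries it was 0 to 2. For the average sorafenib effect, 2 became 1 without a filter and 1 with the replicate number as a block, where Mbp was -0.88 (adjusted p = 0.0744); without single libraries it was 1 to 2. Without single libraries the number called was 0 to 3 for PLX3397 against control and for the average PLX3397 effect, and 0 to 1 for the interaction.

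Values that turned in sign were small or came from genes of few reads, and the cause was not tested. For Pmp22 both agents against PLX3397 became 0.0084 with the stricter filter and 0.012 with counts divided by 4. For Sox10 the interaction became 0.0074 with the stricter filter, 0.013 with limma at 0.5 and 0.000631 at 0.1. For Prx both agents against sorafenib became -0.052 with the block, and both agents against PLX3397 became -0.031 and -0.12 with limma. Without single libraries Mbp ranged over -0.95 to 9.04e-05 for both agents against PLX3397. Cnp ranged over -0.036 to 0.37 for the interaction. S100b ranged over -0.50 to 0.033 for both agents against PLX3397 and -0.096 to 0.44 for the interaction. Pmp22 ranged over -0.10 to 0.015 for the average sorafenib effect, -0.14 to 0.053 for both agents against PLX3397, -0.078 to 0.12 for the interaction and -0.12 to 0.043 for sorafenib against control. Sox10 ranged over -0.22 to 0.00199 for the average sorafenib effect, -0.34 to 0.046 for both agents against PLX3397, -0.24 to 0.22 for the interaction and -0.33 to 0.11 for sorafenib against control. Prx ranged over -0.59 to 0.17 for PLX3397 against control, -0.49 to 0.17 for the average PLX3397 effect, -0.51 to 0.11 for the average sorafenib effect and -0.66 to 0.43 for both agents against PLX3397. It also ranged over -0.99 to 0.24 for both agents against control, -0.64 to 0.66 for both agents against sorafenib, -0.31 to 0.99 for the interaction and -0.92 to 0.15 for sorafenib against control.

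The replicate numbers did not pair the libraries: over 18 pairs of the same number in different groups, the correlation of deviations was -0.10 to 0.06, and 0 exceeded 0.1. The block changed no other call of the 6 genes. Over all genes, sorafenib against control called 500 genes in edgeR, 221 with the block, 772 with the stricter filter, 779 with limma at 0.5, 912 with counts divided by 4, 1739 with DESeq2's Wald test and 24 to 1352 without single libraries. The Wald test also called 1207 genes, not 611, for both agents against PLX3397, and 100, 65, 152 and 5, not 0, for PLX3397 against control, both agents against sorafenib, the average PLX3397 effect and the interaction. Both agents against control called 3046 genes, and 1278 without control replicate 3. Relative to edgeR, limma at 0.1 moved the median of all genes by -0.105 for sorafenib against control, -0.114 for both agents against control and -0.1003 for the average sorafenib effect, to -0.12, -0.14 and -0.11. Mbp, Cnp and S100b stayed below those medians. Of 56 calls of genes on the myelin, Schwann cell, neuron, astrocyte, oligodendrocyte and cardiomyocyte lists, 31 were lost under at least 1 alternative that kept all libraries: 17 with the block, 15 without a filter, 14 with limma at 0.5, 15 at 0.1, 7 with only the groups compared and 1 with DESeq2's size factors, with adjusted p of 0.0511 to 0.238. Small groups, 1 library that stood apart and the low counts of Sox10, S100b and Prx limit the precision, and differences of these genes that did not pass were not detectable at this depth and spread.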
